A study of Mus musculus with 40 samples.

Results

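The comparison described here is that of the peptide IDR-1018 given alone with Vehicle, in the uninjured brain of postnatal day 9 C57/Bl6 mice. Its members are the 5 arrays of the peptide group (called IDR below) and the 5 of the Vehicle group, 10 of 40 arrays in the study, taken by their labels. In both groups the brains were removed 10 h after dosing, so the groups differ by label in what was given and share strain, age, tissue and time. Total RNA was biotin-labelled and hybridised to Affymetrix arrays, and each value is a log2 RMA signal, so a difference of 1 is a 2-fold change. The 19937 genes are those with a probe set of exactly 1 symbol, each gene represented by the probe set of highest mean over the 40 arrays. Further groups of 5 arrays are used only for reference. These are LPS (bacterial lipopolysaccharide given 6 h before removal) and LPS with IDR (the peptide 4 h before LPS and thus 10 h before removal). In the LPS/HI groups, peptide or vehicle came 4 h before LPS, hypoxia-ischaemia 14 h after LPS, and removal of the injured and uninjured hemispheres 6 h later, 24 h after the first dose. The label of the LPS group names no vehicle dose before LPS. Dose, route and sex are not given, nor whether the 5 arrays of a group are 5 animals, so the p-values measure only the spread between these samples.

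IDR-1018 is an innate defence regulator, a short synthetic peptide of the family modelled on natural host defence peptides, in its case on bovine bactenecin. Such peptides are known less for killing bacteria than for changing how leukocytes respond. In blood cells they raise some chemokines, such as the monocyte attractants Ccl2 and Ccl7, and dampen the release of inflammatory cytokines after LPS. The comparison with Vehicle asks what the peptide by itself does to the brain's transcripts, without an LPS stimulus or an injury.

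The 10 arrays were alike. Correlations between them over the genes tested lay between 0.994 and 0.998. No 2 of the study's arrays were identical. Sex-linked transcripts were unequal between the groups. Xist, the female-specific RNA of X inactivation, was high on 2 of 5 Vehicle and 1 of 5 IDR arrays, on all 5 LPS arrays and on 2 of 5 with LPS and IDR, and Y-linked signal was present on the remaining arrays. Neuronal transcripts marked the tissue as brain, with the synaptic protein gene Snap25 at a mean of 12.78 in Vehicle and 12.73 with IDR, and Stmn2, a growth-associated neuronal gene, at 13.14 and 13.16. Since whole tissue was measured, fewer cells of a type and less RNA per cell cannot be told apart. The arrays numbered 5 lay at the far end of the main axis of variation within groups (28.7% of that variance), and counts without them are given where they bear on a result.

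No gene differed between IDR and Vehicle at an adjusted p under 0.05 (limma with Benjamini-Hochberg adjustment over 19937 genes, 0% called). The lowest adjusted p was 1.00. At an unadjusted p under 0.05 there were 321 genes, or 1.61%, where 5% is the nominal share. Of these 153 were higher with the peptide (0.767%) and 168 lower (0.843%). In 59 genes (0.296%) the groups did not overlap, every IDR array lying above every Vehicle array in 22 genes and below in 37. The unadjusted count was more than 1.5 times larger without any 1 of 3 arrays, 734 without IDR array 5, 579 without Vehicle array 5 and 529 without Vehicle array 2. With the arrays numbered 5 left out of both groups it was 841, and no gene was called in any of these fits. Among only the arrays with Y-linked signal, 4 IDR and 3 Vehicle, it was 325, again with no gene called.

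The absence of calls came with narrow intervals. The median standard error of a log2 difference was 0.08, and the median half-width of its 95% interval 0.16. For 19863 genes (99.6%) the whole interval lay within a 1.5-fold change in either direction, and for 15460 (77.5%) within 1.2-fold. No signal filter was set, and 15101 genes had a signal above 6 on at least 5 of the IDR and Vehicle arrays. Values of the rest may be background, where a narrow interval does not bound a change of the transcript. The estimated differences themselves lay between -0.18 and 0.18 from the 1st to the 99th percentile, with a median of -0.01. Only 5 genes had an estimate beyond 1.5-fold. Of these, 4 were sex-linked: Xist at -1.56, and the Y-linked genes Eif2s3y, Uty and Kdm5d at 1.36, 0.96 and 0.66. The fifth was Eomes, a transcription factor of projection neurons of the olfactory bulb, at -0.60. LPS against Vehicle, which shares the Vehicle arrays, had intervals of nearly the same width (median half-width 0.16) and 96 genes beyond 1.5-fold. It gave 146 genes called higher (0.732%) and 20 called lower (0.1%), 166 in all. With the Xist level as a covariate 86 were called, the LPS arrays all having high Xist.

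Genes called higher with LPS were not called with the peptide alone. For Lcn2 and the interferon-induced genes named below, the intervals with the peptide were narrow beside the LPS differences. Mt2 and Fam107a, described further on and also called higher with LPS, had wider intervals, reaching up to 0.66 and 0.78. Lcn2, encoding the iron-binding acute phase protein lipocalin 2, was at 6.12, 5.83, 5.57, 5.90 and 5.92 on Vehicle arrays 1 to 5 and at 6.06, 6.00, 5.75, 5.37 and 6.38 on IDR arrays 1 to 5. With LPS it was at 10.17, 10.03, 9.04, 9.23 and 10.36. The IDR arrays overlapped the Vehicle arrays throughout, and every LPS array lay above all of both. The difference between IDR and Vehicle was 0.04 ± 0.15 (log2 difference ± SE), with a 95% interval from -0.29 to 0.37. LPS directly against IDR gave 3.86 ± 0.25 (limma adjusted p = 1.16e-06).

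**Figure D1:**
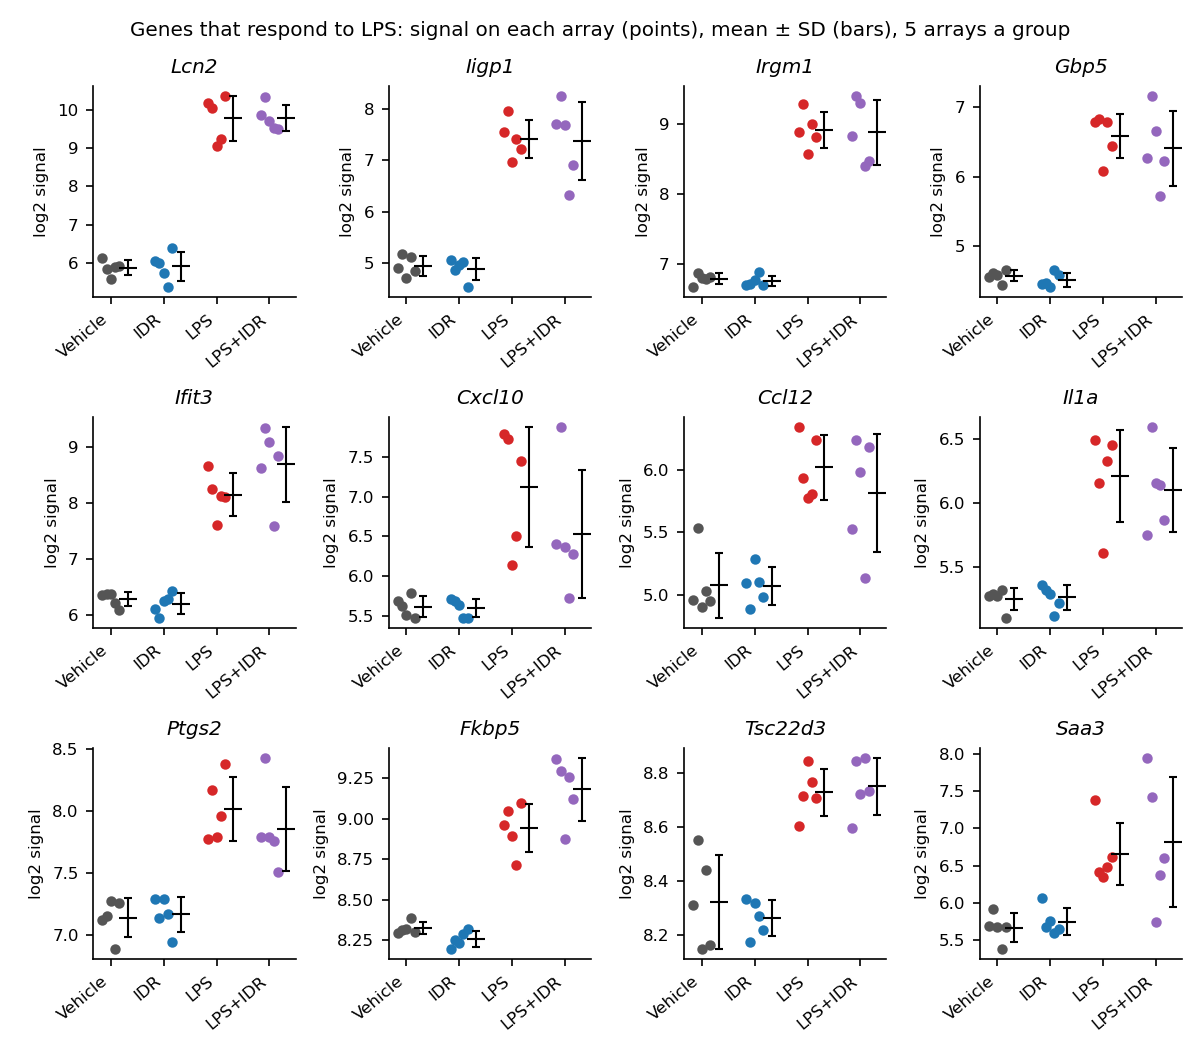
Log2 signal (vertical axes, a scale of its own for each gene) of 12 genes on each array of the Vehicle, IDR, LPS and LPS with IDR groups, 5 points a group, with the group mean ± SD beside the points. In each panel the ranges of the IDR and Vehicle points overlap, for example for Irgm1 between 6.69 and 6.88 against 6.66 to 6.87, while with LPS Irgm1 lies between 8.58 and 9.29.

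Interferon-induced genes, also high with LPS, overlapped between IDR and Vehicle. These genes answer type I and type II interferon and encode much of the cell's own defence against intracellular microbes. Irgm1, an immunity-related guanosine triphosphatase, was at 6.66, 6.87, 6.79, 6.78 and 6.81 on the Vehicle arrays and at 6.69, 6.71, 6.76, 6.88 and 6.70 on the IDR arrays, a difference of -0.03 ± 0.06 with an interval from -0.16 to 0.10. Iigp1, of the same enzyme family, was at 4.90, 5.18, 4.71, 5.12 and 4.86 in Vehicle and 5.07, 4.87, 4.96, 5.02 and 4.54 with IDR. Its groups overlapped, and its difference was -0.06 ± 0.11. For Gbp5, a guanylate-binding protein that assists inflammasome assembly, Vehicle values were 4.56, 4.62, 4.60, 4.46 and 4.66, and IDR values 4.47, 4.47, 4.42, 4.66 and 4.59. In Ifit3, an antiviral effector, the corresponding values were 6.37, 6.38, 6.38, 6.21 and 6.10 against 6.11, 5.94, 6.25, 6.28 and 6.44. The groups overlapped for both genes, with differences of -0.06 and -0.08.

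Of 26 measured interferon response genes, none was called and none had an unadjusted p under 0.05. Their log2 differences ran from -0.16 (Ifitm3, a membrane protein that blocks virus entry) to 0.12 (Oas1a, an antiviral oligoadenylate synthetase), with a median of -0.02 against -0.01 over all genes. All 26 intervals lay within 1.5-fold. The same 26 genes had a median of 0.78 in LPS against Vehicle, with 18 called higher, and 17 were called higher in LPS directly against IDR. The 2 LPS comparisons and the peptide comparison share arrays, so they are set side by side only.

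Acute phase genes encode proteins that the body secretes early in inflammation. Among 18 of them, 9 were above 0 and 9 below with the peptide, the median was 0.00, and none was called, against 5 called higher with LPS. The ends of the list were Hpx, the haem-binding hemopexin, at -0.13 and Orm1, an orosomucoid, at 0.16. Saa3, serum amyloid A3, was at 5.69, 5.91, 5.67, 5.37 and 5.67 in Vehicle and 6.06, 5.68, 5.75, 5.59 and 5.65 with IDR. IDR array 1 was the highest, the rest were intermixed, and the difference was 0.08 ± 0.10. Complement genes, 12 in number, had a median of -0.03, from C1qc at -0.08 to C1ra at 0.18.

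Cytokines and chemokines, which host defence peptides are known to act on in leukocytes, were examined gene by gene. Ccl2, the main monocyte attractant, was at 6.02, 6.38, 5.93, 6.24 and 6.10 in Vehicle and 6.12, 5.98, 6.27, 5.96 and 6.24 with IDR, a difference of -0.02 ± 0.09 with an interval from -0.22 to 0.18. Ccl7, named after its values were seen because it is a known chemokine target of this peptide in blood cells, had means of 6.36 in Vehicle and 6.32 with IDR. Ccl12, a mouse relative of Ccl2, was at 4.96, 5.54, 4.90, 5.03 and 4.95 in Vehicle and at 5.10, 4.89, 5.29, 5.10 and 4.98 with IDR. Here the highest single array was Vehicle 2, the groups overlapped, and the difference was 0.00 ± 0.11. LPS arrays had Ccl12 between 5.77 and 6.35, 0.95 above IDR (limma adjusted p = 4.28e-04).

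Cxcl10, an interferon-induced attractant of T cells, was at 5.69, 5.63, 5.51, 5.79 and 5.47 in Vehicle and 5.71, 5.69, 5.64, 5.48 and 5.47 with IDR, a difference of -0.02 ± 0.08. The lowest chemokine difference was that of Ccl3, a macrophage inflammatory protein made by microglia. It read 7.46, 7.17, 7.65, 7.51 and 6.95 in Vehicle and 7.08, 7.28, 6.81, 7.31 and 7.25 with IDR, and its difference of -0.20 ± 0.13 had an unadjusted p of 0.137. The highest was Ccl19, an attractant of dendritic cells and T cells, at 0.16, whose other probe sets gave -0.20, 0.15 and -0.01. Over 21 chemokines the median was -0.02, all 21 intervals lay within 1.5-fold, and 1, Ccl9, had an unadjusted p under 0.05, at -0.17. With LPS, 3 of the 21 were called higher.

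Il1a, an alarm cytokine, was at 5.27, 5.29, 5.27, 5.32 and 5.10 in Vehicle and 5.36, 5.32, 5.29, 5.12 and 5.22 with IDR, and lay between 5.61 and 6.50 with LPS. The difference between IDR and Vehicle was 0.01 ± 0.06. Il1b, Tnf and Il6, the classical inflammatory cytokines, had differences of -0.05 ± 0.07, -0.09 ± 0.10 and -0.11 ± 0.07. The last were not called with LPS either, at 0.11, 0.19 and 0.02 above Vehicle, so for them LPS gives no reference response on these arrays. For Tnf the Vehicle values were 5.31, 5.84, 5.42, 5.62 and 5.43, and the IDR values 5.50, 5.62, 5.44, 5.19 and 5.43. All 16 pro-inflammatory cytokine genes had intervals within 1.5-fold and a median of -0.01. The mean of this list was low, 5.65 to 5.82 on the IDR arrays, so some of its values may be background. Of 16 anti-inflammatory genes 12 were below 0, with a median of -0.03, from Il1r2, the interleukin-1 decoy receptor, at -0.14 to Nfkbia at 0.06. The mean of this list was 6.42 to 6.51 on the IDR arrays and 6.51 to 6.55 on the Vehicle arrays, ranges that just overlapped, and no member had an unadjusted p under 0.05. Il10, an anti-inflammatory cytokine, was at 0.04 ± 0.07.

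Receptors and relays came next. Tlr4, the receptor for LPS, was at 5.28, 5.32, 5.21, 5.24 and 5.20 in Vehicle and 5.31, 5.08, 5.06, 5.42 and 5.15 with IDR, a difference of -0.05 ± 0.07. Its partner Ly96 (MD-2) had the lowest difference of 18 pattern recognition genes, -0.26 ± 0.23. That value rests on 1 array: Vehicle array 3 was at 7.66, while the other Vehicle arrays lay between 6.13 and 6.46 and the IDR arrays between 6.11 and 6.56. Without that array the difference was 0.02. Of 6 measured genes for molecules linked to host defence peptides in other cells, none was called. Their differences ran from -0.05 (Gnai2) to 0.16 (Mrgprb2). Mrgprb2 was of low signal, 2.89 to 3.23 in Vehicle and 2.95 to 3.49 with IDR. P2rx7, an ATP-gated channel, was at 7.72, 7.80, 7.88, 7.73 and 7.78 against 7.68, 7.79, 7.78, 7.96 and 7.73, a difference of 0.01 ± 0.06. Sqstm1, the scaffold protein p62, gave 11.69, 11.58, 11.64, 11.67 and 11.77 against 11.61, 11.69, 11.51, 11.64 and 11.77, a difference of -0.02 ± 0.06. The formyl peptide receptor gene Fpr2 is not analysed here.

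Nuclear factor kB targets and feedback genes had no call. Nfkbia, the inhibitor that the pathway itself induces, was at 8.52, 8.74, 8.63, 8.71 and 8.80 in Vehicle and 8.82, 8.72, 8.65, 8.74 and 8.76 with IDR, a difference of 0.06 ± 0.06. Ptgs2, the inducible enzyme of prostaglandin synthesis, was at 7.12, 7.15, 7.27, 6.88 and 7.26 against 7.29, 7.14, 7.29, 7.17 and 6.94. The groups of both genes overlapped, and the Ptgs2 difference was 0.03 ± 0.09, whereas LPS exceeded IDR by 0.85 ± 0.11 (limma adjusted p = 0.00101). The 16 measured NF-kB targets ran from Birc3, an inhibitor of apoptosis, at -0.16 to Nfkbia, with a median of -0.01. Relb, a subunit of the alternative NF-kB pathway and named after its values were seen, was the member under an unadjusted p of 0.05, at -0.15 ± 0.06 (6.66, 6.77, 6.66, 6.81 and 6.82 against 6.55, 6.72, 6.58, 6.47 and 6.66). The 13 genes of feedback on MAP kinases had a median of 0.03, from Dusp4, a phosphatase, at -0.15 to Spred1, an inhibitor of Ras signalling, at 0.10.

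**Figure D2:**
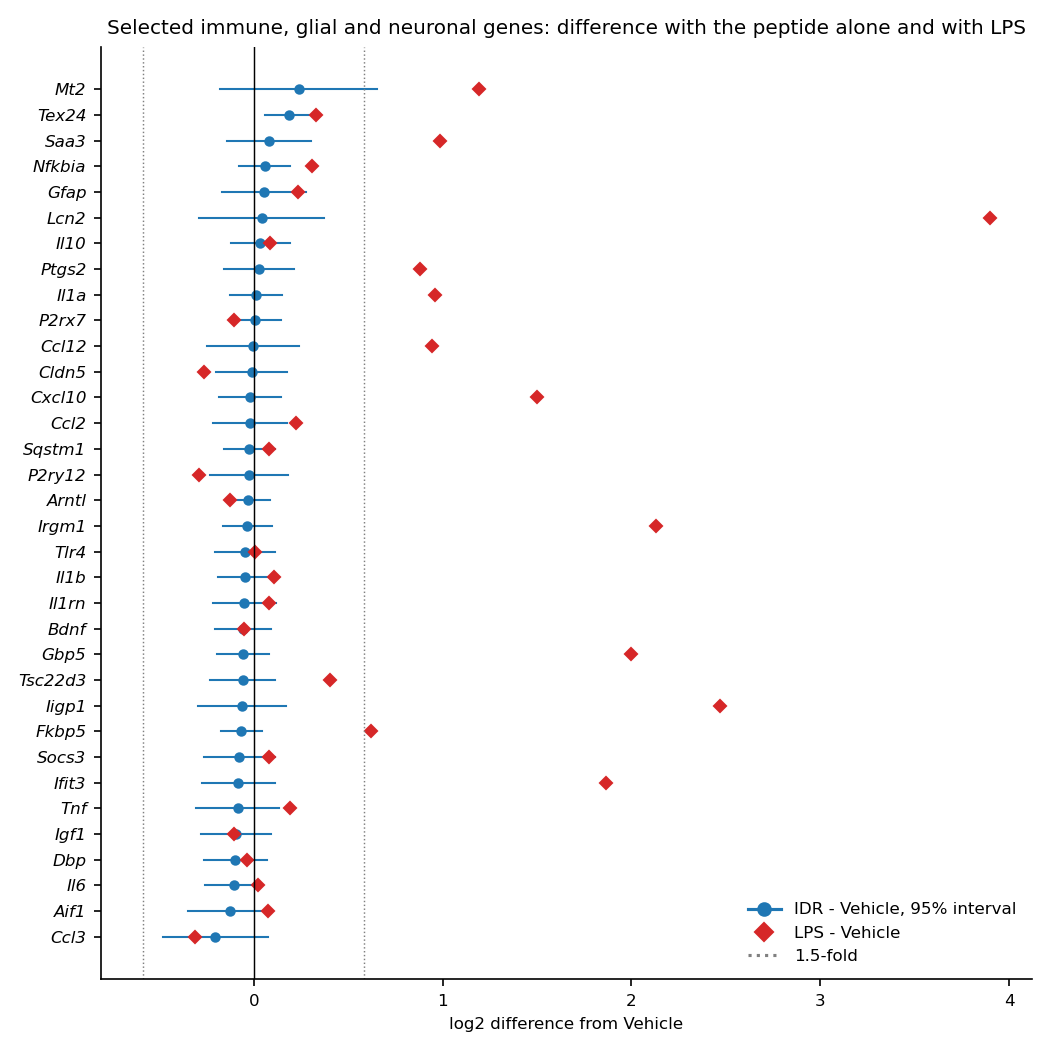
Log2 difference between IDR and Vehicle (blue points) with its 95% interval (blue lines) and between LPS and Vehicle (red diamonds) for 34 genes. These are mostly immune, glial and neuronal genes chosen with earlier results of these data known, and include Tex24. The dotted lines mark a 1.5-fold change: every blue interval except that of Mt2, which reaches 0.66, stays between them, while LPS differences reach 3.90 for Lcn2.

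Glucocorticoid response genes were of interest because stress hormone is released under inflammation and handling. Fkbp5, a co-chaperone of the steroid receptor and a sensitive target, was at 8.29, 8.32, 8.32, 8.39 and 8.30 in Vehicle and 8.20, 8.25, 8.24, 8.29 and 8.32 with IDR. These ranges overlap, with a difference of -0.07 ± 0.05, and LPS exceeded IDR by 0.69 ± 0.07 (limma adjusted p = 1.09e-04). Tsc22d3, which mediates anti-inflammatory actions of glucocorticoid, was at 8.31, 8.55, 8.15, 8.44 and 8.16 against 8.33, 8.17, 8.32, 8.27 and 8.22, a difference of -0.06 ± 0.08. Of 13 measured members 6 were above 0 and 7 below, the median was -0.02 against 0.24 with LPS, and 11 intervals lay within 1.5-fold.

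The 2 members with wider intervals were the metallothionein Mt2, which binds zinc, and Sult1a1, a sulfotransferase. Mt2 was at 11.42, 11.22, 11.72, 11.51 and 11.55 in Vehicle and at 11.40, 12.30, 11.44, 11.19 and 12.26 with IDR. IDR arrays 2 and 5 stood above all Vehicle arrays, and the other 3 did not. Sult1a1 was at 6.42, 6.65, 6.31, 6.64 and 6.93 against 6.87, 7.24, 6.44, 6.46 and 7.38, and Fam107a, an actin-associated stress-responsive gene named after its values were seen, at 9.24, 9.30, 9.15, 8.87 and 9.52 against 9.18, 10.28, 9.12, 9.33 and 9.93. In all 3 genes IDR arrays 2 and 5 were the highest of the 10. The differences of 0.24 ± 0.19, 0.29 ± 0.18 and 0.35 ± 0.20 were within the spread, with unadjusted p of 0.243, 0.122 and 0.0956. Without IDR array 2, the Mt2 difference was 0.09 and that of Fam107a 0.17, and without IDR array 5 they were 0.10 and 0.26. For Sult1a1 the difference was 0.20 without IDR array 2, 0.16 without IDR array 5 and 0.16 among only the arrays with Y-linked signal. Mt2 and Fam107a were also genes called higher with LPS, by 1.19 and 1.29 above Vehicle.

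LPS was then compared directly with the peptide. Of 19937 genes, 145 were called higher with LPS than with IDR (0.727%) and 14 lower (0.0702%). The 14 included the 3 measured genes of the Y-linked list, Eif2s3y, Uty and Kdm5d. Among the 109 measured genes of the chemokine, pro-inflammatory cytokine, NF-kB target, interferon, acute phase and glucocorticoid lists, 36 were called and all 36 were higher with LPS. In the IDR against Vehicle comparison the upper end of the 95% interval for these 36 genes was at most 0.66, that of Mt2. The 36 were chosen with the same IDR arrays, which favours genes low on them. This bound is thus partly set by the choice. This comparison is unequal in sex-linked signal, since all 5 LPS arrays and 1 of 5 IDR arrays had high Xist. With the Xist level as a covariate it gave 37 called genes in place of 159, all 37 among the 159.

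The lists other than the Y-linked genes, the ribosomal protein genes and those made after the values were seen held 560 genes, of which 518 were measured. None was called with the peptide. Of the 518 intervals 511 lay within 1.5-fold, a smaller share than over all genes (19863 of 19937, or 99.6%). At an unadjusted p under 0.05, 4 were higher and 4 lower. These counts are close to the shares over all genes, 0.767% and 0.843%, so they do not set the lists apart. The 4 higher were Cxcr2, a neutrophil chemokine receptor, at 0.15, Cd3d, a T cell receptor chain, at 0.14, Fgfr3, a growth factor receptor of astrocytes, at 0.17, and Vwf, the endothelial clotting factor, at 0.20. The 4 lower were Ccl9, Relb, Ccr1 and Angpt2. Ccr1, a receptor for Ccl3, was at 4.88, 4.59, 4.88, 4.81 and 4.86 in Vehicle and 4.46, 4.68, 4.36, 4.77 and 4.59 with IDR, a difference of -0.23 ± 0.08. Angpt2, an endothelial destabiliser of vessels, was at 6.64, 6.93, 6.72, 6.85 and 6.79 against 6.58, 6.69, 6.36, 6.60 and 6.55, a difference of -0.23 ± 0.07 with an unadjusted p of 0.00802. In Angpt2 only Vehicle array 1 fell inside the range of the IDR arrays. Over all genes the groups did not overlap in 59 (0.296%), and among the list genes in 1. This was Gad1, the GABA-synthesising enzyme of inhibitory neurons. It was at 10.77 to 10.94 in Vehicle and 10.67 to 10.76 with IDR, a difference of -0.09 ± 0.05. Gad1, Ccl9 and Relb were singled out after their values were seen, and the others are ends of their lists.

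Markers of immune cells that could enter the brain had no called gene. Neutrophil markers, 13 genes, had a median of 0.03, from Csf3r, the granulocyte growth factor receptor, at -0.11 to Ly6g at 0.17. Monocyte, lymphocyte and mast cell markers had medians of 0.02, -0.03 and -0.03. The mean signals of the neutrophil, lymphocyte and mast cell lists were low, 5.35, 5.47 and 5.39 with IDR, so some of these values may be background. Of 16 microglia markers 12 were below 0, with a median of -0.05, the lowest being Aif1 (the microglial protein Iba1) at -0.13 ± 0.10 and the highest Itgam (CD11b) at 0.07. P2ry12, a purine receptor of resting microglia, was at -0.03 ± 0.10. Host defence effectors, 12 genes for antimicrobial proteins, had a median of 0.03.

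For resident brain cells, the medians were 0.05 for 12 astrocyte markers, -0.04 for 17 neuron markers and -0.03 for 14 of the oligodendrocyte lineage. Gfap, the filament of reactive astrocytes, was at 0.05 ± 0.10. Cldn5, the tight junction protein of the blood-brain barrier, was at -0.01 ± 0.09, and the 12 barrier genes had a median of -0.01, between Tfrc, the transferrin receptor, at -0.11 and Slc2a1, the glucose transporter, at 0.08. Choroid plexus markers were above 0 in 8 of 10 genes with a median of 0.06, and markers of meninges and fibroblasts below 0 in 10 of 12 with a median of -0.08. The levels of these lists overlapped between the groups: over the 5 arrays the mean of the choroid plexus list was 7.97 to 8.10 with IDR and 7.83 to 8.14 in Vehicle, and that of the meninges list 8.25 to 8.61 and 8.35 to 8.50.

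Growth, stress and daily rhythm programmes had no called gene either. Bdnf, a neurotrophin, and Igf1, an insulin-like growth factor, were at -0.06 ± 0.07 and -0.10 ± 0.09, and all 14 growth and neurotrophic factors had intervals within 1.5-fold. Immediate early genes (median 0.02), heat shock genes (median -0.05, 10 of 12 below 0), hypoxia genes (-0.01), the unfolded protein response (-0.01), p53 targets (-0.01) and NRF2 targets (-0.02) had no gene under an unadjusted p of 0.05. The clock genes Arntl and Dbp, the one driving and the other driven by the circadian oscillator, were at -0.03 ± 0.05 and -0.10 ± 0.08. Of 17 clock genes the median was -0.03.

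**Figure D3:**
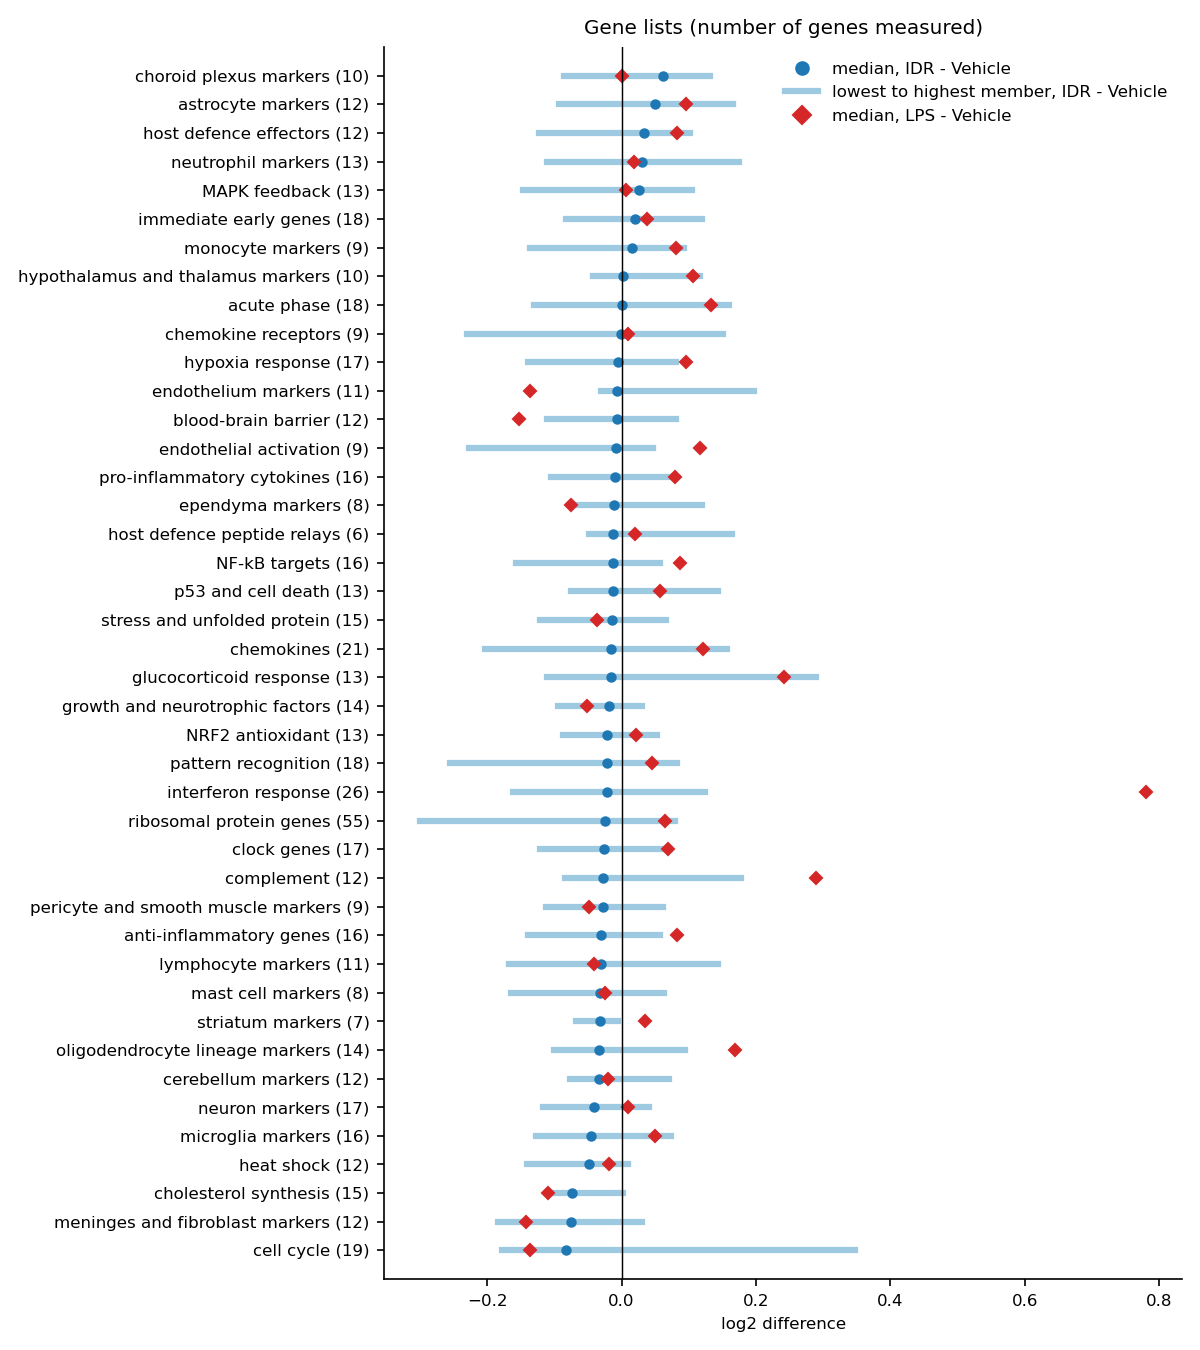
Median log2 difference for IDR against Vehicle (blue points) of the gene lists, without the Y-linked genes and the lists made after the values were seen, with the span from the lowest to the highest member of each list (light blue bars) and the median for LPS against Vehicle (red diamonds), with the number of genes measured in brackets. Blue medians lie between -0.08 and 0.06, and the interferon response list lies at -0.02 with the peptide and 0.78 with LPS.

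In the cell cycle and cholesterol synthesis lists all but 1 measured gene lay below 0. Of 19 cell cycle genes 18 were below 0, with a median of -0.08. Kif11, a motor of the mitotic spindle, was lowest at -0.18 ± 0.09, and none had an unadjusted p under 0.05. The list mean per array was 7.57 to 7.76 with IDR and 7.53 to 7.83 in Vehicle, so the groups overlapped fully. The exception was Pcna, the DNA polymerase clamp, at 0.35 ± 0.18. It was at 10.33, 10.08, 10.22, 9.65 and 10.98 in Vehicle and 10.77, 10.67, 10.56, 10.57 and 10.43 with IDR, the lowest and the highest array both being Vehicle. Its other probe set gave -0.06, and without Vehicle array 4 the difference was 0.20. Cholesterol synthesis genes were below 0 in 14 of 15 cases, with a median of -0.07 and per-array means of 10.16 to 10.28 with IDR and 10.13 to 10.39 in Vehicle. Its lowest member was Idi1, an isoprenoid isomerase, at -0.10. Over all genes tested 11777 were below 0 and 8160 above, and all 7 measured striatum markers were below 0, with a median of -0.03. In LPS against Vehicle, which shares the Vehicle arrays, the cell cycle and cholesterol lists also had medians below 0, -0.14 and -0.11.

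The genes with the smallest p, although none was called, were mostly of low signal. In the 10 lower with the peptide the mean level was below 6 in 7 genes, and likewise in 7 of the 10 higher. Zfp442, a zinc finger protein gene, had the smallest p of all (1.55e-04 before adjustment). It was at 6.56, 6.26, 6.81, 6.55 and 6.34 in Vehicle and 5.96, 5.86, 6.01, 5.93 and 6.21 with IDR. Every IDR array lay below every Vehicle array, and the difference was -0.51 ± 0.10. Efcab9, a calcium-binding protein of sperm, was at 5.54, 5.38, 5.53, 5.42 and 5.54 against 5.06, 5.29, 5.21, 5.07 and 5.24, again without overlap, a difference of -0.31 ± 0.06. Olfr1314, an olfactory receptor, gave 4.31, 4.30, 3.99, 4.26 and 4.36 against 4.00, 3.92, 3.88, 3.95 and 3.95, where Vehicle array 3 fell just below IDR array 1.

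Depdc1a and Fbxo5, both active in dividing cells (Fbxo5 inhibits the anaphase-promoting complex), were also among the 10. Depdc1a was at 5.08, 4.86, 5.02, 5.03 and 5.04 against 4.80, 4.66, 4.79, 4.76 and 4.81, and Fbxo5 at 6.82, 7.02, 7.11, 6.85 and 6.91 against 6.58, 6.28, 6.65, 6.79 and 6.81. Neither overlapped, with differences of -0.25 ± 0.06 and -0.32 ± 0.10. The other probe set of Depdc1a, of lower signal, gave -0.11. Capza3, an actin-capping protein of sperm, stood at 4.46 to 4.70 in Vehicle and 4.30 to 4.44 with IDR. The others were Prl6a1, a prolactin relative, Cuzd1, Ccdc105 and Vmn1r176, a vomeronasal receptor, with differences between -0.29 and -0.21.

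In the other direction, Ttc6 had the highest difference, 0.47 ± 0.11. It was at 5.96, 5.86, 5.66, 5.76 and 5.59 in Vehicle and 6.38, 5.92, 6.39, 6.50 and 6.01 with IDR, with 1 Vehicle array inside the IDR range. Olfr338, an olfactory receptor, was at 3.50, 3.79, 3.84, 3.68 and 3.75 against 4.11, 4.05, 3.83, 4.20 and 4.20, where Vehicle array 3 and IDR array 3 overlapped. Cd300lb, an activating receptor of myeloid cells, was at 4.72, 4.74, 4.87, 4.83 and 4.59 against 4.90, 5.12, 4.94, 4.92 and 4.99, and Defb26, a beta-defensin, at 4.87, 4.82, 4.72, 4.80 and 4.80 against 5.02, 5.11, 4.98, 4.90 and 5.06. Neither overlapped, with differences of 0.22 ± 0.07 and 0.21 ± 0.06. Lin28a, an RNA-binding protein of early development, lay between 6.48 and 6.71 in Vehicle and 6.74 and 6.95 with IDR. The remaining genes were Mir710, Spag11b, Ak8, Ear14 and Tex24.

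Arrays of other pups given the peptide carry the same question in a changed setting, without sharing arrays with this comparison. In LPS with IDR against LPS no gene was called (limma, 0% of 19937), while 2674 genes had an unadjusted p under 0.05 (13.4%). That number was 1751 without LPS array 1, 1630 without LPS array 5, and ran from 930 to 3657 over 20 alternatives. It was 1612 with the Xist level as a covariate and 930 with the ribosomal protein level. All 5 LPS arrays and 2 of 5 with LPS and IDR had high Xist, so this comparison is unequal in sex-linked signal. The part of sex in the count was not tested. Of the 10 higher genes above, 2 had the same sign there (Ak8 and Ear14), and of the 10 lower genes 6. None of the 20 was called, and the 2 under an unadjusted p of 0.05, Cd300lb and Tex24, had the opposite sign, at -0.25 and -0.44. With LPS/HI, the difference between pups with and without the peptide had the same sign for 7 of the 10 higher genes in the uninjured and 7 in the injured hemisphere, and for 5 and 7 of the 10 lower genes. Zfp442 was at 0.11 before LPS and at -0.04 and -0.09 in the uninjured and injured hemispheres, against -0.51 with the peptide alone.

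**Figure D4:**
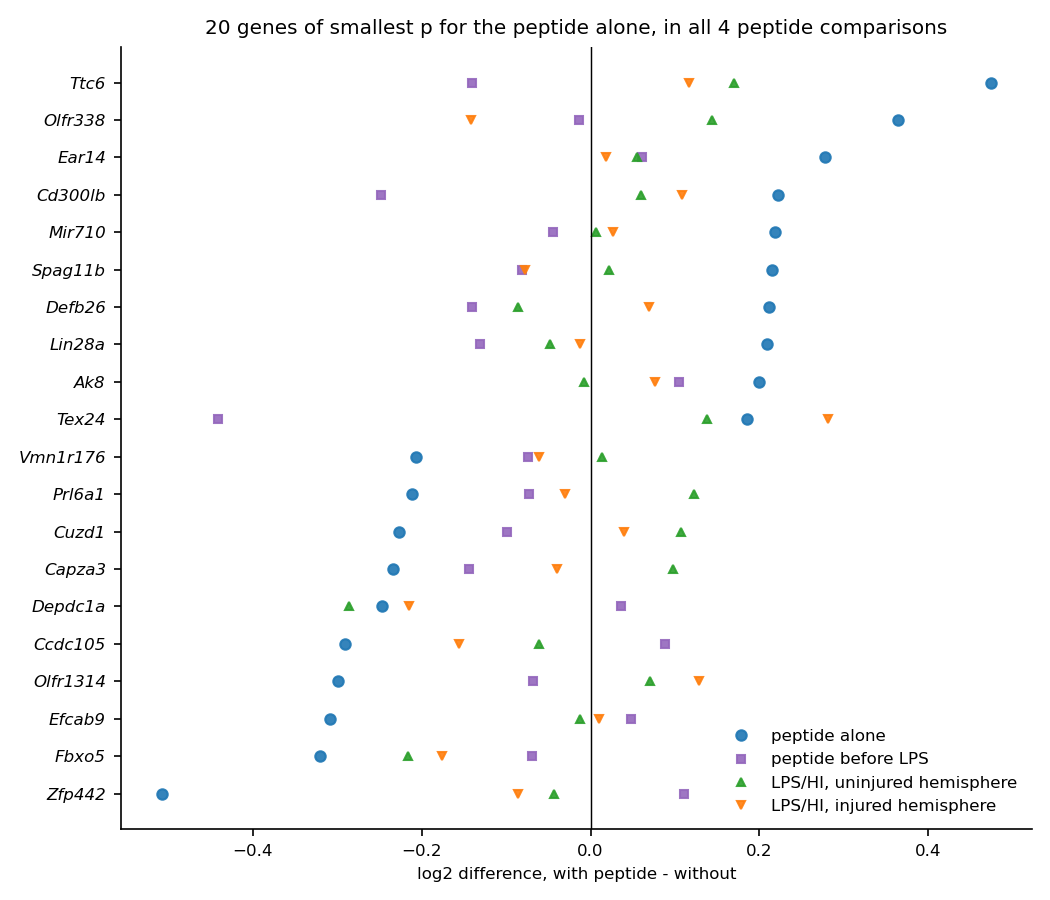
Log2 difference with the peptide minus without (horizontal axis) for the 20 genes of smallest p with the peptide alone (blue), in pups given LPS (purple) and in both hemispheres after LPS/HI (green, orange). The blue points reach from -0.51 to 0.47 because they chose the genes. The other points of Zfp442 lie between -0.09 and 0.11, and that of Tex24 before LPS is at -0.44.

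The difference between the peptide's effect with LPS and without it was tested over 20 arrays. The interaction was called for 1 gene, Tex24 (0.00502% of the genes), which is named for expression in testis, and 873 genes had an unadjusted p under 0.05. The latter number was 573 without Vehicle array 1, 1849 without Vehicle array 5, 550 without LPS array 1 and 1427 without LPS array 4, and ran from 545 to 1849 over 30 alternatives. The groups in this test were also unequal in sex-linked signal, and with the Xist level as a covariate the number was 800. Tex24 was at 4.32, 4.31, 4.40, 4.24 and 4.34 in Vehicle, at 4.58, 4.49, 4.45, 4.42 and 4.60 with IDR, at 4.93, 4.51, 4.63, 4.57 and 4.61 with LPS, and at 4.14, 4.20, 4.27, 4.20 and 4.23 with LPS and IDR. Without LPS every peptide array was above every Vehicle array, and with LPS every peptide array was below every LPS array. The interaction was -0.63 ± 0.09 (limma adjusted p = 0.0146), on a probe set of low signal. The next 4 genes by p, not past the threshold (adjusted p = 0.860), were Zfp442 at 0.62, Tlr7, the receptor for single-stranded RNA, at 0.51, Clca3a1 at 0.47 and the taste receptor Tas2r123 at -0.43. The call for Tex24 was absent without Vehicle array 4, IDR array 1 or LPS with IDR array 1, in the fit to all 8 groups, after a second quantile normalization and with the filter on low signal.

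The largest autosomal difference was that of Eomes, and it came with array-to-array variation within both groups. Eomes was at 7.13, 7.64, 6.25, 6.91 and 7.49 in Vehicle and 6.37, 7.16, 6.10, 6.36 and 6.43 with IDR. The groups overlapped, and the unadjusted p was 0.0237 for a difference of -0.60 ± 0.24. Cdhr1, a cadherin of olfactory bulb mitral and tufted cells and of photoreceptors, was at 8.55, 8.95, 7.82, 8.17 and 8.77 against 7.93, 8.50, 7.93, 7.73 and 7.67, a difference of -0.50 ± 0.20. Together with Doc2g (-0.20) and Tbx21 (-0.14), both expressed in the same bulb neurons, these genes formed a list of 4 made after the values were seen. Its mean per array was 6.82 to 7.87 in Vehicle and 6.83 to 7.53 with IDR, with array 2 the highest in each group. The part of olfactory bulb content in the differences of Eomes and Cdhr1 was not tested. In pups given LPS, Eomes was at -0.33 and Cdhr1 at -0.44 with the peptide, neither called.

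Other genes varied between arrays of 1 group by more than the group means differed. Mog and Mag, proteins of the myelin sheath, were at 7.43, 7.34, 7.38, 7.21 and 7.79, and 8.73, 8.66, 8.76, 8.52 and 9.58, in Vehicle. With IDR they were at 7.37, 7.29, 8.22, 7.80 and 6.08, and 8.77, 8.58, 9.42, 9.10 and 7.91. IDR array 5 was the lowest of the 10 in both genes, and the differences were -0.08 ± 0.29 and -0.09 ± 0.25. Tfap2b, a transcription factor gene active in the midbrain, ranged from 5.66 to 7.29 in Vehicle and from 5.98 to 7.13 with IDR, for a difference of -0.05 ± 0.31. Single arrays set 2 further wide intervals: the small nucleolar RNA Snord104 was at 10.20 on Vehicle array 3 and between 12.06 and 12.35 on the other 9, and Gramd3 was at 6.60 on IDR array 3 and between 8.11 and 8.86 on the other 9. These genes were picked after their values were seen.

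**Figure D5:**
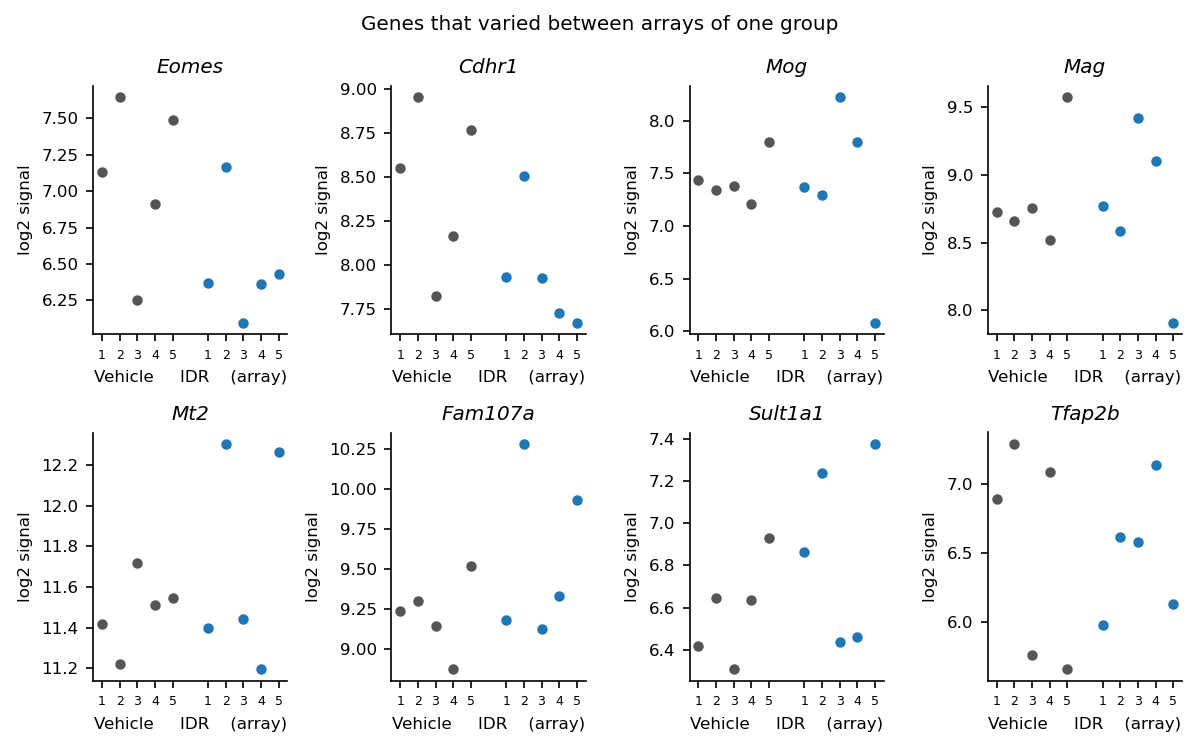
Log2 signal of 8 genes on each Vehicle (grey) and IDR (blue) array, numbered 1 to 5 within the group, with a scale of its own for each gene. Eomes and Cdhr1 are spread within Vehicle, Mog and Mag are lowest on IDR array 5 (6.08 and 7.91), and Mt2, Fam107a and Sult1a1 are highest on IDR arrays 2 and 5.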

How the data were processed

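The deposited values are log2 RMA signals, 1 per probe set and array. Per the submitters' processing notes RMA and the affy package were used, with no version or genome build given in the sources used here. RMA normalises arrays to a common distribution, so a shift shared by all genes would not be visible. Of 34760 probe sets 21640 carried 1 symbol in the platform annotation, 1321 several and 11799 none. This left 19937 genes, of which 954 had several probe sets, and 19855 had a gene ID in mouse RefSeq (GRCm38.p6). No signal filter was set.

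Groups were compared with limma 3.58.1 (lmFit, eBayes) in R 4.3.3, on the arrays of the groups compared, adjusting p over all genes, and the code was tested on simulated data. Errors are standard errors. The number of arrays limits precision. Named were the 10 genes of smallest p in each direction (clone names, Xist and Y-linked genes passed over) and the 5 interaction genes of smallest p. A fixed list of mostly immune, glial and neuronal genes, with Xist and Tex24 among them, was also named. So were the lowest and highest member of many of the lists described. The members and the 43 lists were chosen with earlier results of these data known, and 5 more lists after the values were seen. Alternatives tried were other filters, variance priors, normalizations, covariates, a replicate block and leaving out arrays.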

Additional observations from a re-analysis of the deposited data

Results flagged for a closer look

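Array values set apart from the other 4 of their group were sought for 51 of the named genes and for 47 list means, in Vehicle and IDR. The limit was Dixon's 95% limit for 5 samples, a gap over 0.71 of the group's range. Of 196 groups 21 passed, or 10.7%. Snord104 and Gramd3 had been picked after their values were seen, Xist and Eif2s3y split by sex-linked signal, and some lists share members. This share therefore cannot be read against the 1 in 20 of independent groups not chosen by their values. In Vehicle, array 2 was apart for Ccl12 at 5.54, Depdc1a at 4.86, Ccr1 at 4.59 and the unfolded protein list at 9.09. Vehicle array 3 was apart for Ly96 at 7.66, Olfr1314 at 3.99 and Snord104 at 10.20, and array 4 for Fkbp5 at 8.39. Vehicle array 5 was apart for Il1a at 5.10, Mag at 9.58, the oligodendrocyte lineage list at 9.39, the myelin list at 9.03 and the ribosomal protein list at 10.54.

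Among the IDR arrays, array 2 was apart for Xist at 11.95 and Eif2s3y at 3.67, being the 1 array of the group with high Xist and no Y-linked signal. It was also the highest for the mast cell list at 5.46 and the olfactory bulb list at 7.53. Array 3 was apart for Gramd3 at 6.60, array 4 for the chemokine list at 6.41 and the anti-inflammatory list at 6.42, and array 5 for Vwf at 8.02. Vehicle and IDR differed in none of these genes at an adjusted p under 0.05 (limma), and the list means were not tested.

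The effect of the peptide on Tex24 differed between pups with and without LPS, by -0.63 in the test of that difference, on a probe set of low signal. The call was absent without Vehicle array 4, IDR array 1 or LPS with IDR array 1. It was also absent in the fit to all 8 groups, after a second quantile normalization and with the filter on low signal.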

How the results depend on the processing

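No gene was called for IDR against Vehicle under 22 of 23 alternatives. With the level of the 4 olfactory bulb genes as a covariate, an alternative added after the values were seen, 1 gene was called, Zfp442, and 1353 genes had an unadjusted p under 0.05. Under the other alternatives that number ran from 144 to 1274. No gene of the lists other than the Y-linked, ribosomal and later-made ones was called under any of 23. Intervals within 1.5-fold numbered 19762 to 19851 under 4 alternatives. Leaving out 1 array at a time, IDR against Vehicle gave 0 calls and IDR before LPS against LPS 0 calls in each of 10 runs, LPS against Vehicle 137 to 175, LPS against IDR 109 to 153 and the interaction 0 to 2. With the Xist level as a covariate, calls were 86 for LPS against Vehicle and 37 for LPS against IDR, in place of 166 and 159. Beside the runs without 1 array, the interaction lost its call and stood at 0 with a second quantile normalization, the low-signal filter and a joint fit of the 8 groups. The cause of these shifts was not tested.

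The IDR against Vehicle differences of 178 named genes gave 3864 values under the alternatives other than the olfactory bulb covariate. All moved by less than 1 within-group SD, and none was called. That limit is a weak one. The fit to all 8 groups, the low-signal filter, other variance priors and the replicate block leave the difference itself unchanged. Leaving out 1 array of 5 cannot move it by that much. Signs changed under 8 of 22 alternatives for Cldn5 and 6 of 22 for Ccl2, but under 0 for Zfp442.

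With a replicate block on the number in the labels, IDR against Vehicle had 0 calls and 589 genes at an unadjusted p under 0.05, against 321 without it. The other comparisons had 187 (LPS against Vehicle), 188 (LPS against IDR), 0 and 1 (interaction). The numbers were not taken as pairs: deviations of same-numbered arrays correlated at 0.01, 0.46, 0.08, 0.12 and 0.42, and 3 of 5 Vehicle arrays correlated best with their own number. RMA files carry no call of signal over background, so low values such as those of Il6 or Olfr338 may be background, and the 74 genes with wider intervals cannot be bounded within 1.5-fold.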
